A study of Mus musculus with 9 samples.

Results

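The 10 genes described here, of 53801 genes listed in each count file, serve the storage and use of fatty acids: *Plin2*, *Hilpda*, *Pnpla2*, *Lipe*, *Dgat1*, *Dgat2*, *Acsl1*, *Cpt1a*, *Cd36* and *Pparg*. They were taken by name from a list drawn up with earlier results of these data known, all of them are described, and each matched 1 Ensembl identifier. Their RNA was measured in monocytes/macrophages sorted as CD11c-Ly6G-CD11b+CD45high cells from 9-week-old male C57BL/6J mice. The 3 groups of 3 libraries were blood cells of sham-operated mice (sham blood), blood cells of mice 5 days after dMCAO, in which the distal part of the middle cerebral artery and the left common carotid artery were closed for good (stroke blood), and cells from the brains of such mice 5 days after dMCAO (brain). Each blood library held the cells of 1 mouse and each brain library a pool of 5 mice, so the spread between brain libraries is one between pools. The day on which sham blood was taken is not named. The same gate was used in brain and blood, and it does not by itself part infiltrated macrophages from other CD45high myeloid cells of the brain.

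Fatty acids enter a macrophage through carriers such as CD36 or are freed from engulfed material, and are joined to coenzyme A before further use. They are then either esterified to triglyceride, which is kept in lipid droplets under a coat of perilipins, or carried into mitochondria and oxidised. Droplet triglyceride is cut back to fatty acids by lipases, and PPARγ, a nuclear receptor that binds fatty acids, controls many genes of uptake and storage.

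Total counts lay between 18475118 and 22623578 per library, so that the floor of 3 counts was 0.133 to 0.162 CPM (counts divided by the library total and multiplied by 1000000). The summed level of 8 monocyte and macrophage markers was 85215 to 121482 CPM in sham blood, 94078 to 105297 CPM in stroke blood and 45260 to 50949 CPM in the brain, with none of the markers at 0. The lower sum was not shared by the list. By the test used below, 1 of these 8 markers was upregulated and 1 downregulated in the brain against each blood group. Markers of microglia, the resident macrophages of the brain, summed to 134 to 204 CPM in the blood libraries. They summed to 1327, 1909 and 3568 CPM in brain replicates 1, 2 and 3. All 8 of them were higher in the brain by the test used below. Only 4 of them could be tested between the blood groups, and the others were tested only because of their brain counts. Platelet markers were 337 to 416 CPM in stroke blood and 38.3 to 84.3 CPM in the brain, and erythroid markers were 13801 to 18457 CPM and 4.16 to 14.5 CPM. Sham blood replicate 1 stood apart from the other sham libraries, with 19.0 CPM of platelet and 1223 CPM of erythroid markers against 482 to 699 and 30425 to 34182 CPM. Markers of adipocytes, the cells best known for lipid droplets, summed to at most 1.03 CPM in any library, and *Adipoq*, *Plin1*, *Lep*, *Cidec* and *Cfd* were at 0 in all brain libraries. In sorted bulk samples, fewer cells of a type and less RNA per cell cannot be told apart.

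Of the 10 genes, 5 were upregulated in the brain relative to stroke blood: the droplet coat gene *Plin2*, the lipase inhibitor gene *Hilpda*, the triglyceride synthesis gene *Dgat1*, the uptake gene *Cd36*, and *Pparg*. Differentially expressed genes (DEGs) are those with a log2 fold change beyond 1 in either direction and an adjusted p under 0.05 in edgeR's quasi-likelihood test over all genes tested. Of the 13189 genes tested in this comparison, 21% were DEGs, 13.1% upregulated and 7.86% downregulated. None of the 10 genes was a downregulated DEG, and the lipase gene *Pnpla2* was lower by less than the fold that a DEG requires. By the adjusted p alone, whatever the fold, 5 of the 10 were higher (17.5% of all genes) and 1 lower (13.1%), and 7 had an unadjusted p under 0.05 (42.2%). Between stroke blood and sham blood none of the 10 was a DEG.

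**Figure D1:**
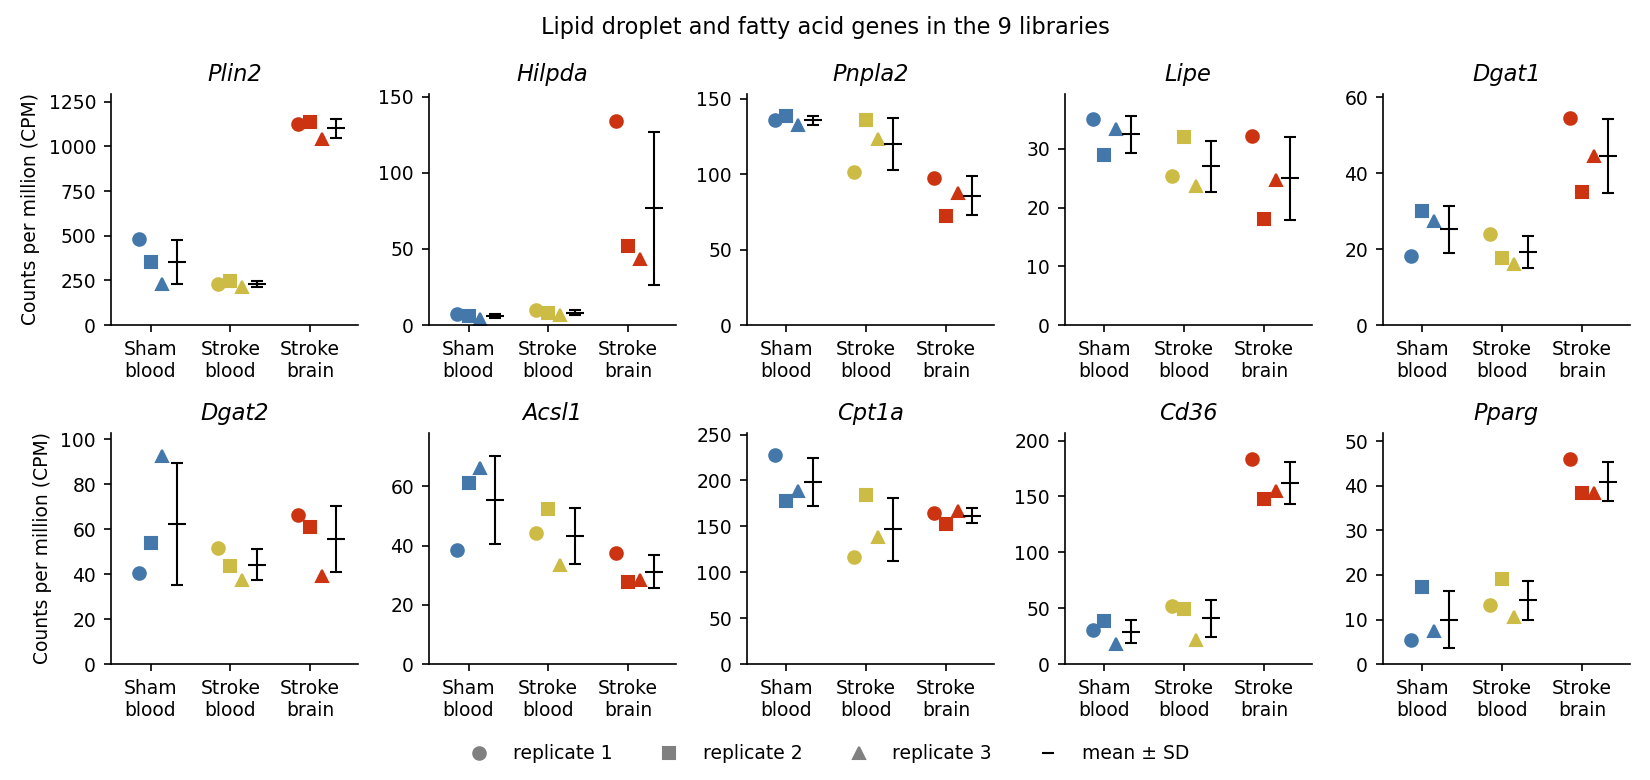
Read counts per library total, scaled as CPM, of each of the 10 genes in the 9 libraries, each gene on its own linear vertical axis from 0. Circles, squares and triangles are replicates 1, 2 and 3 of sham blood (blue), stroke blood (yellow) and brain (red), and the black bar is the mean ± SD over 3 libraries. For *Plin2*, *Hilpda*, *Dgat1*, *Cd36* and *Pparg* all brain libraries lie above all 6 blood libraries, while for *Dgat2* and *Lipe* the groups overlap.

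Promoter sequences are shown for the 4 genes that were upregulated in the brain against both blood groups (*Plin2*, *Hilpda*, *Cd36* and *Pparg*), to set their letters beside the shared rise. They were taken from RefSeq on GRCm38.p6, span 250 bases before to 50 bases from an annotated start on, and read 5′ to 3′ on the strand of the gene. The *Plin2* sequence is chr4:86670010-86670309 on the minus strand, that of *Hilpda* is chr6:29272376-29272675 on the plus strand (the further downstream of its listed starts), that of *Cd36* is chr5:17835847-17836146 on the minus strand and that of *Pparg* is chr6:115360894-115361193 on the plus strand (the first of its 3 listed starts). Capitals mark ACGTG and GCGTG, the core that hypoxia-inducible factors bind, and AGGTCA, the half-site of PPARγ and other nuclear receptors, on either strand.
Plin2: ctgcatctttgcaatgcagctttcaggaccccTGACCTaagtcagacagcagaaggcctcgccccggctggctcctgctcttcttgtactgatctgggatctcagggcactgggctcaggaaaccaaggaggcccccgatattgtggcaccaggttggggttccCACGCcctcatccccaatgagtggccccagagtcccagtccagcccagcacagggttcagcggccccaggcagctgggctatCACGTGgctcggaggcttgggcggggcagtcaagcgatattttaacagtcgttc
Hilpda: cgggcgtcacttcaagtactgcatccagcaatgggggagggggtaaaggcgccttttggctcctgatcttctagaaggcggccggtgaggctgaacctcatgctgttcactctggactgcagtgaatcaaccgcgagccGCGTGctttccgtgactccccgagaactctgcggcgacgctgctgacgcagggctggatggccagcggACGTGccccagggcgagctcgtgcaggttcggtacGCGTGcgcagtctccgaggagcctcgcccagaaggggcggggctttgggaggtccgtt
Cd36: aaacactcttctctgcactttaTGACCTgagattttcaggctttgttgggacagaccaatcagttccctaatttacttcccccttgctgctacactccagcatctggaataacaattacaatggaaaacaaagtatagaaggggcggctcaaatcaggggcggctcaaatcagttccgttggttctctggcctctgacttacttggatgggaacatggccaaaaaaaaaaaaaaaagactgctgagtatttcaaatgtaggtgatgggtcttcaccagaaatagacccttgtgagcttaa
Pparg: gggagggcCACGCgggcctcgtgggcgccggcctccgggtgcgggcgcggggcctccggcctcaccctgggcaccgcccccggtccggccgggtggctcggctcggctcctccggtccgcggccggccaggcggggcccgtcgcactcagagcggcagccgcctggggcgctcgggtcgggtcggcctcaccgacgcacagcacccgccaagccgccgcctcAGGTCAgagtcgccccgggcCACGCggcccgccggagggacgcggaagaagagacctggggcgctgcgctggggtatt

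Counted from the start (first base of a match, -1 being the base before the start), *Plin2* held CACGTG at position -4, which counts as 2 overlapping ACGTG matches on opposite strands, GCGTG at -86 and AGGTCA at -218. At the printed start *Hilpda* held ACGTG at -43 and GCGTG at -111 and -8, while the window of its other start held no ACGTG and GCGTG at 28 alone. *Pparg* held GCGTG at -242 and -8 and AGGTCA at -28 at the printed start, AGGTCA at -9 alone at the next and none of the motifs at the last, and *Cd36* held only AGGTCA at -228. The windows printed for *Hilpda* and *Pparg* are the ones with the most matches of their listed starts. Among 32817 promoters of the same length, 19.6% held ACGTG, 32.4% GCGTG and 16.3% AGGTCA, so each of these motifs is common by itself. A pair of AGGTCA copies with 1 base between them, the full PPAR element in its strict form, was in 0.0396% of all promoters and in none of the members. Of the genes that were not upregulated, *Pnpla2* held none of the motifs in its window, *Cpt1a* held AGGTCA at -94, *Acsl1* held GCGTG at -208, 16 and 27 at the first of its starts, and *Lipe* held CACGTG at -155 and GCGTG at -75 at the first of its starts, so that ACGTG was not limited to upregulated genes. The table has promoters for 8 of the 10 genes, with *Dgat1* and *Dgat2* not among them. A match describes these letters only.

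*Plin2* encodes perilipin 2, the perilipin that coats lipid droplets in macrophages and most cells outside fat tissue. It lies on chr4:86648386-86670060 of GRCm38, on the minus strand. Its level was 1125, 1137 and 1041 CPM in the brain libraries, 229, 246 and 213 CPM in stroke blood and 481, 351 and 232 CPM in sham blood. Every brain library was more than 2-fold above the highest blood library, and the blood groups overlapped, with the wider range in sham blood. Between brain and stroke blood the log2 fold change was 2.11 (SE 0.14, adjusted p = 2.3e-05), or 4.32-fold, and its 95% interval ran from 1.79 to 2.43. Against sham blood it was 1.51 (SE 0.25, adjusted p = 0.00685). With brain replicate 1, the brain library with the lowest microglia markers, as the only brain library, it was still 1.5 against sham blood but with an adjusted p of 0.0855, a fit that assumes the lone library varies as the others do.

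*Hilpda* encodes a small droplet protein that is induced by hypoxia and fatty acids and inhibits ATGL, the product of *Pnpla2*. It lies on chr6:29272488-29275446 on the plus strand. It was counted 2519, 1179 and 945 times in the brain libraries, 209, 168 and 123 times in stroke blood and 144, 128 and 80 times in sham blood, which is 134, 52.1 and 43.7 CPM, then 10.1, 7.79 and 6.64 CPM, then 7.01, 6.02 and 4.33 CPM. All brain libraries were above all blood libraries, and brain replicate 1 was 3.07-fold above the lowest brain library, while *Plin2* varied by 1.09-fold over the same libraries. The log2 fold change was 3.07 against stroke blood (SE 0.42, adjusted p = 0.000823, 95% interval 2.13 to 4.02) and 3.60 against sham blood (SE 0.46, adjusted p = 0.00285), the largest rise of the 10 genes in both brain comparisons. Without brain replicate 1 the log2 fold changes were 2.41 and 2.94, and *Hilpda* remained a DEG in both.

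*Pnpla2* encodes ATGL, the lipase that takes the first fatty acid from droplet triglyceride, and lies on chr7:141455198-141460743 on the plus strand. Its level was 97.7, 72.3 and 87.9 CPM in the brain, 101, 136 and 123 CPM in stroke blood and 136, 139 and 133 CPM in sham blood. All brain libraries were below all blood libraries, by a narrow margin between brain replicate 1 and stroke blood replicate 1. Its log2 fold change was -0.64 against stroke blood (SE 0.18, adjusted p = 0.0239) and -0.78 against sham blood (SE 0.15, adjusted p = 0.0103), so the gene fell in both comparisons without reaching the fold of a DEG. The call against stroke blood was not firm: when stroke blood replicate 2 or 3 or brain replicate 2 or 3 was left out, its adjusted p was 0.0514, 0.0551, 0.106 and 0.0727 in that order, and it was 0.068 with library size as the only scaling. Of 15 alternative fits, 8 kept its adjusted p against stroke blood under 0.05.

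*Lipe* encodes hormone-sensitive lipase, which mainly cuts diglyceride and cholesteryl ester, on chr7:25379527-25398710 on the minus strand. Its level was 32.2, 18.1 and 24.6 CPM in the brain, 25.4, 31.9 and 23.6 CPM in stroke blood and 35.0, 28.9 and 33.4 CPM in sham blood, and brain and stroke blood overlapped. The log2 fold change was -0.27 (95% interval -0.81 to 0.28, adjusted p = 0.435) against stroke blood and -0.50 (-1.04 to 0.03, adjusted p = 0.166) against sham blood, so a change of 2-fold downward lay outside the first interval and inside the second. Its exons share bases with *4732471J01Rik* on the opposite strand, and since the strand setting of the counting is not stated, its counts are uncertain.

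The products of *Dgat1* and *Dgat2* complete triglyceride by adding the last fatty acid. *Dgat1*, on chr15:76502015-76511953 on the minus strand, was 54.5, 34.9 and 44.4 CPM in the brain, 24.1, 17.7 and 16 CPM in stroke blood and 18.2, 30.1 and 27.4 CPM in sham blood. All brain libraries were above all blood libraries, the nearest being brain replicate 2 and sham blood replicate 2. The log2 fold change against stroke blood was 1.06 (SE 0.23, adjusted p = 0.0088, 95% interval 0.53 to 1.58), just past the fold of a DEG, and fell to 0.94 without stroke blood replicate 2, 0.92 without stroke blood replicate 3 and 0.90 without brain replicate 1 (adjusted p-values up to 0.046), and to 0.90 with upper-quartile scaling. Against sham blood it was 0.70 (SE 0.24, adjusted p = 0.0787), which did not pass. *Dgat2*, on chr7:99153658-99182719 on the minus strand, was 66.4, 61.1 and 39.0 CPM in the brain, 51.5, 43.8 and 37.6 CPM in stroke blood and 40.7, 53.8 and 92.5 CPM in sham blood, with overlap between all groups. Its log2 fold change was 0.17 (95% interval -0.34 to 0.68, adjusted p = 0.601) against stroke blood and -0.29 (-1.05 to 0.46, adjusted p = 0.566) against sham blood, where it was 0.11 without sham blood replicate 3. The difference between the responses of the *Dgat* genes was not tested, and their intervals against stroke blood overlap.

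*Acsl1* encodes a long-chain acyl-CoA synthetase, which activates fatty acids for storage or oxidation, on chr8:46471037-46536051 on the plus strand. Its level was 37.6, 27.5 and 28.5 CPM in the brain, 44.2, 52.2 and 33.5 CPM in stroke blood and 38.3, 61.1 and 66.3 CPM in sham blood. Brain replicate 1 lay above the lowest stroke blood library, and all brain libraries lay below all sham libraries, narrowly so for brain replicate 1 and sham blood replicate 1. The log2 fold change was -0.63 against stroke blood (SE 0.22, adjusted p = 0.0533) and -0.95 against sham blood (SE 0.24, adjusted p = 0.0285). The fall against sham blood passed the adjusted p but not the fold. It was -1.09 without brain replicate 1 and -1.14 without sham blood replicate 1, past the fold of a DEG, and the adjusted p was 0.0897 to 0.0966 when sham blood replicate 2 or 3 or brain replicate 2 or 3 was left out. Of 15 alternative fits, 8 kept the adjusted p of *Acsl1* against sham blood under 0.05. Its exons share bases with *Gm45244* on the opposite strand.

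*Cpt1a*, which encodes the carnitine palmitoyltransferase that commits fatty acids to mitochondrial oxidation, lies on chr19:3323301-3385732 on the plus strand in the count files. It was 165, 152 and 167 CPM in the brain, 117, 184 and 139 CPM in stroke blood and 228, 178 and 189 CPM in sham blood. The brain libraries lay within the range of stroke blood and below every sham library. The log2 fold change against stroke blood was -0.02 (95% interval -0.42 to 0.39, adjusted p = 0.957), and against sham blood -0.42 (-0.76 to -0.08, adjusted p = 0.082), so that neither passed and the first interval holds changes of up to 0.42 downward and 0.39 upward on the log2 scale. The sign of the first depended on the scaling, since it was 0.14 with library size alone.

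*Cd36* encodes the scavenger receptor and fatty acid carrier CD36, on chr5:17781690-17888801 on the minus strand. Its level was 184, 147 and 155 CPM in the brain, 52.2, 49.1 and 22.0 CPM in stroke blood and 30.9, 38.3 and 18.1 CPM in sham blood. The brain libraries were well apart from all blood libraries, and the blood groups overlapped. In log2 fold change this was 1.83 against stroke blood (SE 0.29, adjusted p = 0.00163, 95% interval 1.18 to 2.48) and 2.36 against sham blood (SE 0.26, adjusted p = 0.00164). Platelets also carry CD36. Platelet markers were lower in the brain, and sham blood replicate 1, with the fewest platelet marker counts in blood, had a *Cd36* level between those of the other sham libraries. Endothelial cells express *Cd36* as well. Their summed markers were 25.1 to 34.7 CPM in the brain and 52.4 to 64.8 CPM in stroke blood. This sum hides a difference between its 7 markers. *Cldn5*, *Tek*, *Ptprb* and *Slco1a4* were at 0 in all blood libraries, and only *Cldn5* and *Tek* were at 0 in all brain libraries. Of the 2 endothelial markers tested against stroke blood, 1 was downregulated and none upregulated. The part of platelets and endothelial cells in the *Cd36* result was not tested.

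*Pparg* encodes PPARγ and lies on chr6:115360951-115490399 on the plus strand. Its level was 46.0, 38.3 and 38.5 CPM in the brain, 13.3, 19.1 and 10.52 CPM in stroke blood and 5.40, 17.2 and 7.42 CPM in sham blood. All brain libraries were well above all blood libraries, and sham blood replicate 2 was 3.19-fold above the lowest sham library. In log2 fold change this was 1.36 against stroke blood (SE 0.24, adjusted p = 0.00295, 95% interval 0.82 to 1.90) and 1.92 against sham blood (SE 0.39, adjusted p = 0.0149). Without sham blood replicate 2 the latter was 2.53 (adjusted p = 0.00358). The second call was lost without sham blood replicate 3 (1.75, adjusted p = 0.0591) and with brain replicate 1 as the only brain library (2.04, adjusted p = 0.106).

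**Figure D2:**
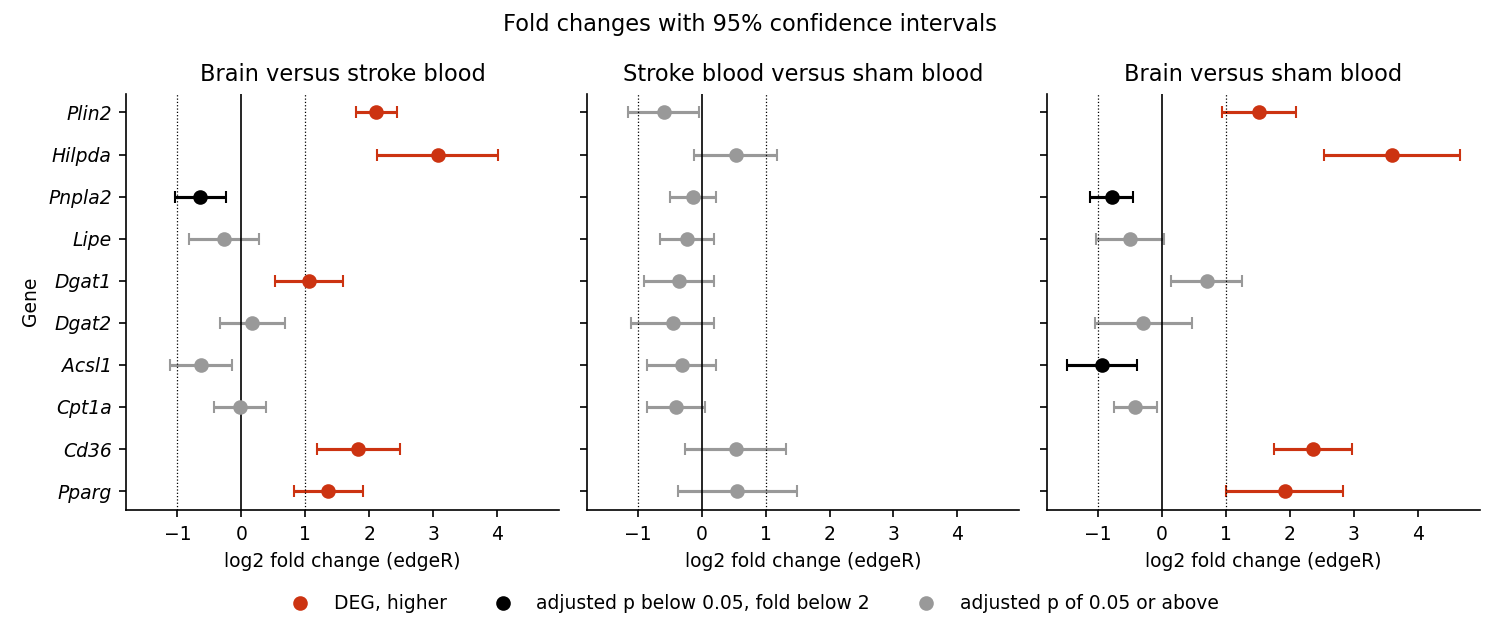
Log2 fold changes of the 10 genes by edgeR in each comparison, with 95% confidence intervals and dotted lines at the fold a DEG requires. Red marks upregulated DEGs, black genes with an adjusted p under 0.05 and a smaller fold, and grey the rest, and 5 genes are red against stroke blood, 4 against sham blood and none between the blood groups.

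Across the 10 genes, all brain libraries lay above all stroke blood libraries for 5 genes, against 31.9% of all genes tested, and below them for 1, *Pnpla2*, against 17.3%. The median log2 fold change was 0.61, and 0.06 over all genes tested. Brain versus sham blood, which shares the brain libraries with the first comparison, had 4 upregulated DEGs among the 10 and no downregulated one, with 9.75% and 3.67% (13.4% together) over 13020 genes. By the adjusted p alone 4 were higher (12.1%) and 2 lower (7.68%), and 8 had an unadjusted p under 0.05 (34.3%). All brain libraries lay above all sham libraries for 5 genes (27.4% of all genes) and below them for 3, *Pnpla2*, *Acsl1* and *Cpt1a* (14.2%), with a median log2 fold change of 0.20 against 0.01 over all genes.

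In the blood itself, the effect of stroke on these genes was within the spread between mice. None of the 10 was a DEG, where DEGs made up 0.0079% of 12664 genes tested, and the blood groups overlapped for all 10, where 8.23% of all genes were higher and 10.5% lower in every stroke library. *Plin2* alone had an unadjusted p under 0.05 by edgeR (0.0376, adjusted p = 0.38), against 12.5% of all genes, with a log2 fold change of -0.60 and a 95% interval from -1.15 to -0.04. The other genes lay between -0.46 (*Dgat2*) and 0.56 (*Pparg*), with adjusted p-values from 0.443 to 0.729. *Hilpda* (-0.12 to 1.18), *Cd36* (-0.26 to 1.32) and *Pparg* (-0.37 to 1.49) had 95% intervals that reached past 1 on the log2 scale, so that a 2-fold rise in stroke blood lies within them, and that of *Dgat2* (-1.10 to 0.19) holds a 2-fold fall, as does that of *Plin2*. Without sham blood replicate 2 the *Pparg* value was 1.18 (adjusted p = 0.707). DESeq2 also called none of the 10, with 65 upregulated and 70 downregulated DEGs over all genes.

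The order of the levels, compared as CPM per kb of exon, changed with the tissue at its upper end. The length counts every annotated exonic base of a gene and can exceed that of the transcript expressed. Orders and ratios between genes depend on this choice. *Plin2* was highest in all groups, at 101 ± 35.4 CPM per kb (SD, n = 3) in sham blood, 65.3 ± 4.79 in stroke blood and 313.5 ± 14.9 in the brain, and did not overlap the next gene in any. *Pnpla2* followed in both blood groups (45.0 and 39.8 CPM per kb), ahead of *Cpt1a* (26.0 and 19.2 CPM per kb). In the brain *Hilpda* (69.6 CPM per kb) and *Cd36* (45.1 CPM per kb), which overlapped each other, came before *Pnpla2* (28.5 CPM per kb), and *Cpt1a*, *Dgat2*, *Dgat1* and *Pparg* formed a run of overlapping neighbours from 21.1 to 13.9 CPM per kb. *Lipe* and *Acsl1* were lowest there, at 4.24 and 2.98 CPM per kb. In sham blood the neighbours from *Dgat1* (8.26 CPM per kb) down to *Pparg* (3.39 CPM per kb) overlapped, and in stroke blood so did those from *Cpt1a* down to *Acsl1* (4.13 CPM per kb).

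Ratios within a library do not depend on its scaling, and the pairs were chosen after the values were seen, so they are given without a test. The ratio of *Plin2* to *Pnpla2*, coat to lipase, per length was 9.91, 13.5 and 10.2 in the brain, 1.94, 1.56 and 1.48 in stroke blood and 3.04, 2.17 and 1.502 in sham blood. That of *Hilpda*, the inhibitor, to *Pnpla2*, its target, was 3.77, 1.97 and 1.36 in the brain, 0.272, 0.157 and 0.147 in stroke blood and 0.141, 0.119 and 0.0891 in sham blood. Per length, *Hilpda* RNA exceeded *Pnpla2* RNA in every brain library and in no blood library. The ratio of *Dgat1* to *Dgat2* was 0.828, 0.576 and 1.15 in the brain and 0.30 to 0.564 in blood, and that of *Pnpla2* to *Lipe* was 5.91 to 7.80 in the brain and 7.58 to 10.2 in blood, where the ranges overlap.

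**Figure D3:**
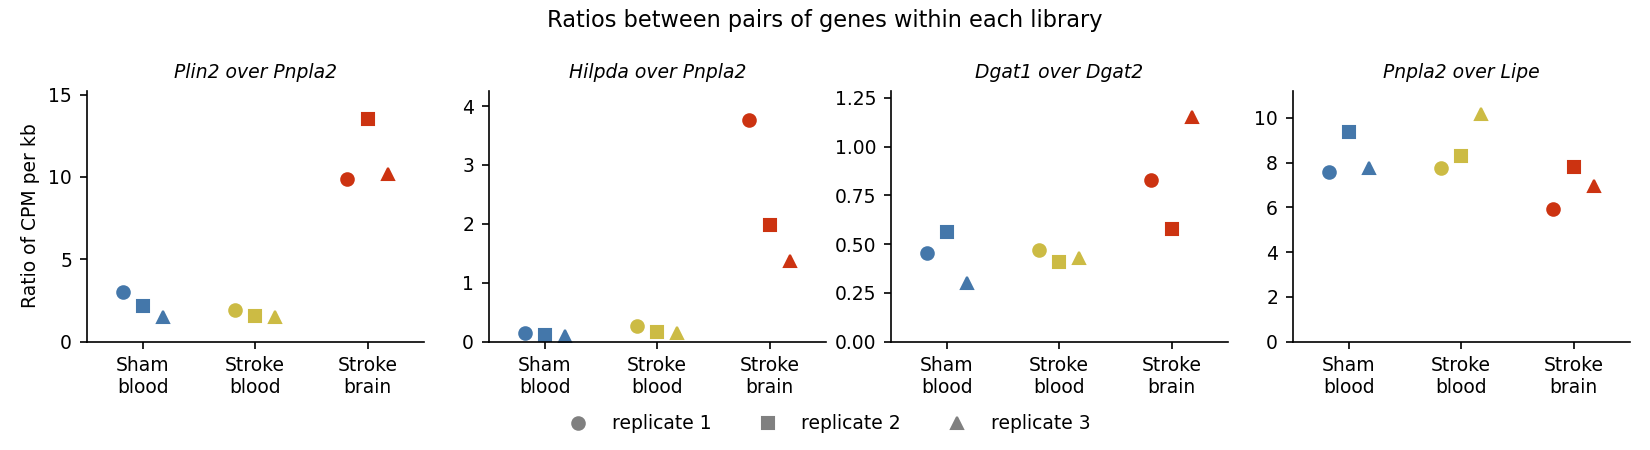
Ratios of CPM per kb between pairs of genes in each library, on linear axes from 0, with the replicates of sham blood, stroke blood and brain as separate points. *Plin2* over *Pnpla2* and *Hilpda* over *Pnpla2* are higher in all brain libraries than in any blood library, and *Pnpla2* over *Lipe* overlaps between brain and blood.

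Over the 9 libraries, which differ mostly by tissue, the log2 CPM of the upregulated genes were positively correlated. Pearson's r was 0.883 for *Plin2* and *Hilpda*, 0.942 for *Hilpda* and *Cd36* and 0.909 for *Cd36* and *Pparg*. It was lowest for *Plin2* and *Pparg*, at 0.697, and was 0.727 to 0.782 for *Dgat1* with the other upregulated genes. *Pnpla2* ran against the upregulated genes, with r of -0.832 with *Plin2* and -0.87 with *Hilpda*. So did *Acsl1*, with r of -0.797 and -0.767 in that order, and -0.381 with *Dgat1*. *Lipe* and *Cpt1a* also had a negative r with each upregulated gene. These are descriptions of 3 groups, not of 9 independent points. Of 13612 genes, the ones most like *Plin2* in the same measure were *Timp1* (0.992), *Ncs1* (0.986) and *AI427809* (0.986), and those most like *Hilpda* were *Snhg15* (0.987), *Tmcc3* (0.986) and *Tnfaip3* (0.985). *Cd274* (0.992), *Ptger4* (0.978) and *Socs2* (0.976) were most like *Cd36*, and *Tns1* (0.965) and *Cyth3* (0.963) were among those most like *Pparg*. *Trp53i11* (0.989), *Galnt12* (0.977) and *Tjp1* (0.977) were nearest to *Dgat1*, and *Mrtfa* (0.981), *Mfsd7a* (0.973) and *Aph1b* (0.972) to *Pnpla2*. For *Lipe* the nearest were *Sp2* (0.967), *Rtl8a* (0.95) and *Helb* (0.943), and for *Acsl1* they were *Atp2a3* (0.977), *Rab27b* (0.962) and *Padi4* (0.958). *Dgat2* and *Cpt1a* had the least close partners, *Mapk13* (0.909), *Flot1* (0.90) and *Nfs1* (0.893) for the former and *Hbp1* (0.921), *Med26* (0.916) and *D230025D16Rik* (0.915) for the latter.

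Around the 10 genes, 10 lists of related genes with 113 genes in all were counted, of which 88 could be tested between brain and blood. Against stroke blood 18 were upregulated and 2 downregulated DEGs, with a median log2 fold change of 0.08 where all genes had 0.06. Over all genes the shares were 13.1% and 7.86%. Against sham blood 13 were upregulated and 3 downregulated, where the shares over all genes were 9.75% and 3.67%, with a median of -0.03 where all genes had 0.01. No list gene was a DEG between the blood groups, of 84 tested. The lists are described by their counts, in the order of the pathway, and each count is to be read against these shares.

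Of 13 further genes of the droplet coat and its assembly, 6 were tested, since the other perilipins of fat and muscle (*Plin1*, *Plin4* and *Plin5*) and the CIDE proteins (*Cidea*, *Cideb* and *Cidec*) were among those left out for low counts. Only *Fitm2*, which helps droplets bud from the endoplasmic reticulum, was upregulated against stroke blood (4.42 against 1.49 CPM, log2 fold change 1.41, adjusted p = 0.0344), and it was not a DEG against sham blood. Its call was lost, with adjusted p-values of 0.0926 to 0.126, without stroke blood replicate 1 or 2 or brain replicate 2 or 3. *Hsd17b11*, a droplet-bound dehydrogenase, was downregulated (20.1 ± 13.5 against 70.1 ± 10.2 CPM, log2 fold change -1.97, adjusted p = 0.00612), and its log2 fold change was -2.64 without brain replicate 1 and -1.16 with it as the only brain library. *Plin3*, the other perilipin that could be tested, is named here after its values were seen and was 97.1 ± 11.9 CPM in the brain and 97.3 ± 7.18 CPM in stroke blood (log2 fold change -0.16, adjusted p = 0.496).

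Of 8 further genes of lipolysis, 7 were tested and 3 were upregulated against stroke blood, 2 of them also against sham blood, where 13.1% and 9.75% of all genes were. None was downregulated, as were 7.86% and 3.67% of all genes. *G0s2*, like *Hilpda* an inhibitor of ATGL, was counted 925, 3498 and 4024 times in the brain and 148, 274 and 90 times in stroke blood (130 ± 71.7 against 8.24 ± 4.04 CPM, n = 3 each), a log2 fold change of 3.83 (SE 0.52, adjusted p = 0.000775), and its log2 fold change against sham blood was 3.4 (SE 0.58, adjusted p = 0.00772). *G0s2* was lowest in brain replicate 1, the library where *Hilpda* was highest, and with it as the only brain library the log2 fold changes were 2.41 and 1.95, the latter with an adjusted p of 0.104. *Angptl4*, a fasting-induced inhibitor of lipoprotein lipase and a PPAR target, rose from 0.758 to 7.50 CPM (log2 fold change 3.14, SE 0.47, adjusted p = 0.00129) and by 3.21 on the log2 scale against sham blood.

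Glycerolipid and sterol ester synthesis had 12 tested genes of 15, of which 2 were upregulated in each brain comparison, near the shares of 13.1% and 9.75% over all genes, and none was downregulated. *Gpat3*, whose product puts the first fatty acid on glycerol phosphate, was 21.9, 25.0 and 16.7 CPM in the brain, 2.03, 1.11 and 0.971 CPM in stroke blood and 1.65, 2.35 and 2.76 CPM in sham blood. Its log2 fold change was 3.79 (SE 0.36, adjusted p = 0.000119) against stroke blood and 3.11 (SE 0.29, adjusted p = 0.000813) against sham blood. *Agpat3*, the next step, rose by 1.24 and 1.17, the latter with an adjusted p of 0.04 that rose to between 0.069 and 0.126 when any of sham blood replicates 1 and 3 or brain replicates 1, 2 and 3 was left out. Exons of *Gpat3*, *Agpat3* and *Fitm2* share bases with other genes.

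Among fatty acid activation genes 1 of 5 tested (9 listed) was upregulated in both comparisons, the transporter and acyl-CoA synthetase gene *Slc27a1*, at 34.0 ± 3.54 CPM in the brain, 7.00 ± 1.61 CPM in stroke blood and 7.45 ± 3.65 CPM in sham blood (log2 fold changes 2.12 and 2.07, adjusted p = 0.000342 and 0.00912). Binding and sensing genes had the highest median of the lists against stroke blood, 1.92. Of 7 tested genes, 5 were upregulated against stroke blood and 4 against sham blood, where 13.1% and 9.75% of all genes were. Between the blood groups 5 were tested, so some of the 7 passed the filter on low counts only with their brain counts. Such genes could hardly be called lower, and the median and the counts of this list partly follow from that. *Gpr84*, a receptor for medium-chain fatty acids, rose by 3.57 (SE 0.40) and 3.71 (SE 0.55) on the log2 scale, the latter 4.52 without sham blood replicate 3. With brain replicate 1 as the only brain library these were 2.97 and 3.06, the latter with an adjusted p of 0.0744. *Ffar2*, a receptor for short-chain fatty acids, was counted 45, 79 and 30 times in the brain and 3, 2 and 4 times in stroke blood (log2 fold change 3.81, adjusted p = 0.0028), and *Fabp3*, a fatty acid binding protein gene, was counted 51, 51 and 106 times against 6, 10 and 5 times in sham blood (3.12, adjusted p = 0.00743). *Gpr84* and *Fabp3* share exon bases with other genes.

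Of 17 tested mitochondrial beta-oxidation genes (19 listed), none was a DEG in any comparison, with medians of -0.19 and -0.24 in the brain against stroke and sham blood, and 2 genes with a positive and 3 with a negative change passed the adjusted p alone against stroke blood. Of 7 peroxisomal genes, *Abcd2*, which encodes a transporter of very long-chain acyl-CoA, was downregulated in both comparisons, at 49.3 ± 11.9 CPM in the brain against 122.6 ± 32.4 and 129.6 ± 9.00 CPM (log2 fold changes -1.46 and -1.51, adjusted p = 0.00229 and 0.00338).

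In fatty acid synthesis and desaturation, 2 of 12 tested genes were upregulated against stroke blood, while 1 was upregulated and 1 downregulated against sham blood. *Fads1*, the delta-5 desaturase gene, rose by 3.06 (SE 0.33, adjusted p = 0.000246) and 2.62 (SE 0.38, adjusted p = 0.00458) on the log2 scale. *Me1*, the gene of malic enzyme, had no count in stroke blood and 15, 17 and 16 in the brain, with 5, 8 and 0 counts in sham blood. This is at least 5.14-fold higher than stroke blood against a floor of 3 counts per library (adjusted p = 0.00376). *Me1* passed the filter on low counts through the brain alone, so its call against stroke blood could only be a rise. *Scd1*, the stearoyl-CoA desaturase gene, was 3.30 CPM in the brain and 9.99 CPM in sham blood (log2 fold change -1.72, adjusted p = 0.0192). Its adjusted p was 0.0645 to 0.0713 without sham blood replicate 2 or 3 or brain replicate 2 or 3. In stroke blood *Scd1* was 6.85, 2.41 and 0.432 CPM, a range that holds all brain libraries, and it was not a DEG between brain and stroke blood.

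Of 14 tested transcription regulators (17 listed), 4 were upregulated against stroke blood and none was downregulated, and against sham blood 3 were upregulated and 1 downregulated. *Cebpb*, which acts ahead of *Pparg* in fat cell formation and is an inflammatory factor in macrophages, was 957, 1556 and 1455 CPM in the brain, 36.0, 19.99 and 49.1 CPM in stroke blood and 28.9, 33.4 and 17.5 CPM in sham blood. Its log2 fold changes were 5.08 (SE 0.37, adjusted p = 3.22e-05) and 5.52 (SE 0.33, adjusted p = 0.00022), above that of any of the 10 genes. *Cebpa*, its partner in fat cells, was downregulated against sham blood (16.2 ± 6.38 against 38.9 ± 13.7 CPM, log2 fold change -1.38, adjusted p = 0.0287), a call lost without sham blood replicate 2 or 3 or brain replicate 2 or 3 (adjusted p from 0.0812 to 0.094). *Mlxipl*, a carbohydrate-sensing factor, was counted 121, 42 and 199 times in the brain, 5, 0 and 0 times in stroke blood and 7, 6 and 1 times in sham blood. Its stroke blood counts came from 1 library, so its fitted log2 fold change is no measured fold. This value moved from 5.91 to 9.84 without stroke blood replicate 1 and to 5.28 without stroke blood replicate 2. *Mlxipl* passed the filter on low counts through the brain alone, so its calls could hardly be other than a rise. Exons of *Cebpb*, *Cebpa*, *Mlxipl* and *Me1* share bases with other genes. Of 9 further PPAR target genes tested (12 listed), *Angptl4* alone was a DEG in each brain comparison, with list medians of 0.19 and 0.36.

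**Figure D4:**
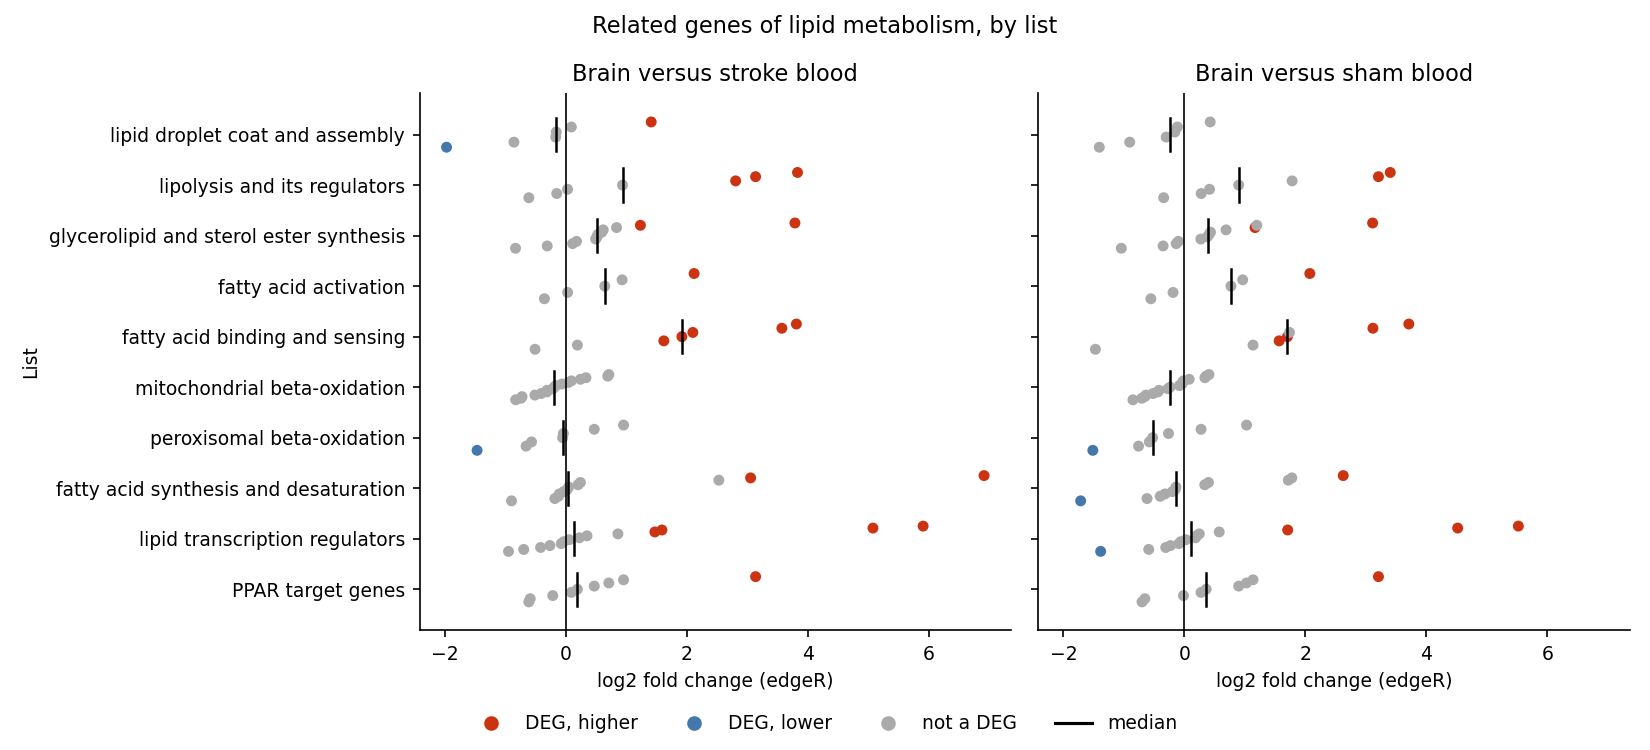
Log2 fold changes by edgeR of the tested genes of each list in the 2 brain comparisons, with a dot per gene and a black line at the list median. Red and blue dots are upregulated and downregulated DEGs and grey dots the rest, and the mitochondrial beta-oxidation list holds only grey dots while 5 of 7 binding and sensing genes are red against stroke blood.

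Beside these values stand the marker sums of other cells. The gate removes Ly6G+ neutrophils and CD11c+ cells, which include most dendritic cells, and does not select T, B or neural cells. Their marker sums do not tell whether such cells passed the gate or the sorted cells themselves held this RNA. All 8 microglia markers, 4 of 5 tested markers of border-associated macrophages and 6 of 7 dendritic cell markers were upregulated against stroke blood. Over all genes the share was 13.1%. Between the blood groups only 4, 4 and 6 of these markers passed the filter on low counts, in that order. The others were tested only because of their brain counts and could hardly be called lower. The summed dendritic markers did not overlap between tissues and were 748 to 1020 CPM in the brain and 99.9 to 231 CPM in stroke blood, and the summed border-associated markers were 1039 to 1278 and 1419 to 2659 CPM, while the fifth tested marker was downregulated. Neutrophil markers were 887 to 1465 CPM in the brain and 437.5 to 772 CPM in stroke blood, without overlap. In sham blood they were 747 to 2958 CPM, which overlaps the brain. Of the 7 neutrophil markers tested against stroke blood, 5 were upregulated and 1 downregulated. Against sham blood 2 of 7 were upregulated and 1 downregulated. Sums that overlapped between brain and stroke blood were those of T and NK markers at 643 to 1266 against 270 to 821 CPM, of B cell markers at 47.0 to 91.3 against 64.0 to 108 CPM, and of neural and choroid plexus markers at 158 to 287 against 187 to 323 CPM. The neural sum hides a difference between its 9 markers, of which 6 exceeded 3 counts in a brain library and 2 in a stroke blood library. *Syt1* and *Mog* were at 0 in both, and *Gfap*, *Aqp4*, *Snap25*, *Ttr* and *Kcnj13* were at 0 in all stroke blood libraries only. Of the 3 neural markers tested against stroke blood, 1 was upregulated. Across brain replicates 1, 2 and 3, with microglia markers at 1327, 1909 and 3568 CPM, *Plin2* was 1125, 1137 and 1041 CPM, *Cd36* 184, 147 and 155 CPM, *Pparg* 46.0, 38.3 and 38.5 CPM and *Dgat1* 54.5, 34.9 and 44.4 CPM. *Hilpda*, at 134, 52.1 and 43.7 CPM, was highest in the pool with the lowest microglia markers, and *G0s2*, at 49.3, 154.6 and 186.2 CPM, was lowest there. The part of these cells in the results was not tested.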

How the data were processed

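RNA of sorted monocytes/macrophages was amplified with the SMART-Seq HT kit, made into libraries by tagmentation and sequenced in paired ends. Mapping by the authors used HISAT2 and GRCm38, and counting used HTSeq. The deposited values are raw counts of reads per gene that were not normalized. Versions, annotation release and strand setting of these steps are not given in the sources used here. The libraries carry no molecular identifiers, so a floor of 3 counts allows for counting error alone. Replicate libraries were further apart than counting noise (chi-square of 23.9 to 135.9 per degree of freedom) and stood as separate replicates. Numbers in the names of the deposited tables run to 8 distinct values over the 9 libraries, and which libraries were sequenced together is not given.

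Symbols, exonic lengths and overlaps came from GENCODE M21, which held 53620 of 53801 identifiers, 52019 at the same position. CPM were counts over the library total. Each pair of groups was fitted in edgeR 4.0.16 under R 4.3.3 (quasi-likelihood test, TMM scaling, default filter on low counts, no covariate), with Benjamini-Hochberg adjustment over all genes tested, and the standard error is the log2 fold change over the square root of F. DEGs had an adjusted p under 0.05 with a log2 fold change beyond 1 either way. An exact permutation test of 3 against 3 libraries cannot go below 0.1 and was not used. Nothing in the labels ties a blood library to a brain pool. Likeness is Pearson's r of log2 CPM (TMM, prior count of 2) over genes kept in all 9 libraries, and 1 result of it is not reported here. The fits were tested on simulated counts.

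The 10 genes and the lists of related genes and markers were chosen with earlier results of these data known. Named from each list were at most 2 DEGs with the largest rise and 2 with the largest fall in each comparison, and *Plin3* was added. The alternatives were DESeq2 1.42.0, 3 other scalings, 2 other filters, all 9 libraries in one fit, the replicate number as a block, other thresholds, each library left out, and brain replicate 1 as the only brain library.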

Additional observations from a re-analysis of the deposited data

How the results depend on the processing

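Among the 10 genes, *Plin2*, *Hilpda*, *Cd36* and *Pparg* were upregulated against stroke blood under all 15 alternative fits and *Dgat1* under 11. Against sham blood *Hilpda* and *Cd36* were upregulated under all 15, *Plin2* under 14 and *Pparg* under 13. None of the 10 was a DEG between the blood groups under any of 14 alternative fits. At an adjusted p under 0.01 *Pparg* was no longer called against sham blood. With library size as the only scaling the median log2 fold change of all genes moved by 0.155 (brain versus stroke blood) and 0.122 (brain versus sham blood), and with upper-quartile scaling by -0.149 and -0.071.

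The direction turned for *Cpt1a* against stroke blood, to 0.14 with library size only, 0.0077 with the replicate block, -0.19 to 0.12 with 1 library left out and 0.0009 with brain replicate 1 as the only brain library, for *Lipe* with that library alone (0.0876), and for *Dgat2* against sham blood without sham blood replicate 3 (0.11, in a range from -0.52 over the libraries left out). The cause was not tested.

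The labels do not say whether the replicate numbers pair the samples. Same-numbered libraries deviated with r from -0.07 to 0.066, and libraries of different numbers with r from -0.080 to 0.115. With 1 mouse per blood library and pools of 5 in the brain, these values cannot decide whether the number pairs them. With the number as a block, edgeR called 5 of the 10 genes upregulated against stroke blood, and 0 up and 1 down over all genes between the blood groups, where it called 1 up and 0 down without the block.

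Downregulated list genes against stroke blood numbered 4 with upper-quartile scaling, 6 without brain replicate 1 and 11 with no fold threshold, and against sham blood 6 with DESeq2, 5 with no filter, 1 to 6 with a library left out, 1 at an adjusted p under 0.01 and 8 with no fold threshold. Downregulated members numbered 1 with no fold threshold against stroke blood, and against sham blood 2 with no fold threshold, 1 with upper-quartile scaling and 0 to 1 with a library left out. With brain replicate 1 as the only brain library, 594 genes fell against stroke blood, and against sham blood 511 rose and 160 fell, with 2 of the 10 genes and 5 list genes upregulated. An adjusted p under 0.01 left 598 downregulated genes against stroke blood, and 610 upregulated and 182 downregulated against sham blood, and no fold threshold gave 1727 and 1000 lower. Leaving out a library gave 277 to 669 downregulated genes against sham blood. Between the blood groups DESeq2 called 65 up and 70 down, no filter 59 and 101, each with 1 list gene up, an adjusted p under 0.01 gave 0 up, and leaving out a library gave 0 to 1 up and 0 to 15 down.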
